A study of Rattus norvegicus with 8 samples.

Results

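The collagen, laminin and elastic matrix genes were followed in cultured oligodendrocyte precursor cells (OPCs) of the rat, the dividing glial cells from which myelinating oligodendrocytes arise. Members were taken by gene symbol. They were the collagen chains, the laminin chains, the emilins and the fibulins, together with Fn1, Eln, Nid1, Nid2 and Agrn. Hspg2 was also sought, but no gene was listed under that symbol. The rule found 67 of the 32883 genes in the table, and no measured value entered it. The cultures came from the cerebral cortex of Sprague Dawley rats aged 1 to 2 days, with 4 libraries from male and 4 from female animals. Cells of both sexes went through a mixed glial culture in 20% serum, were collected as the fraction that did not attach, and were held for 4 to 5 days on poly-DL-ornithine. Their medium was Neurobasal with B27 (2%), PDGF (10 ng/ml) and FGF (10 ng/ml). Sex was the only difference the labels named, and nothing in them tells whether libraries of a sex came from separate animals, litters or cultures. The p-values therefore measure the spread between these libraries, which may be technical.

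The extracellular matrix is built from fibres and sheets that cells secrete. Fibrillar collagens form ropes, type IV collagen and laminin form the sheets called basement membranes, and nidogens and agrin are bound to these sheets. Elastin is the rubber-like core of elastic fibres, which emilins and fibulins accompany. In the brain, basement membranes lie mainly around blood vessels and under the meninges. Laminins are known to act on oligodendrocyte survival and on the start of myelination, through integrins and dystroglycan on the cell surface.

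Levels are given as FPKM, the fragments of a gene scaled by its transcript length and by the total of its library, as the authors deposited them. The scaling by length lets levels be compared between genes. The libraries differed in depth. Steps between low FPKM values put them at 0.553 to 1 times the depth of male 1 in the male libraries and at 0.304 to 0.986 times in the female ones (exact two-sided permutation test, p = 0.343), and the absolute depth is unknown. Male 1 and female 3 were the deepest. The defining OPC genes were abundant, with 229 ± 10.4 FPKM of the receptor gene Pdgfra in male and 303 ± 27.8 FPKM in female cultures (SD, n = 4 each).

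Most matrix genes were at or near 0 in both sexes. Of the 67 members, 16 reached a mean of 1 FPKM over the 8 libraries and were tested, and these 16 held 96.7% of the summed FPKM of all members. Another 41 were above 0 in at least 1 library, and 10 were listed at 0 in all 8. Those 10 were Col1a2, Col2a1, Col3a1, Col4a3, Col8a1, Col13a1, Col15a1, Col17a1, Col23a1 and Lama3. The summed FPKM of all members was 205 ± 3.38 in male and 211 ± 12.8 in female libraries (SD, n = 4 each), between 0.0259% and 0.0340% of the total of each library. The highest sum was that of female 1, at 229.8 FPKM, and the sums of the sexes overlapped.

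**Figure D1:**
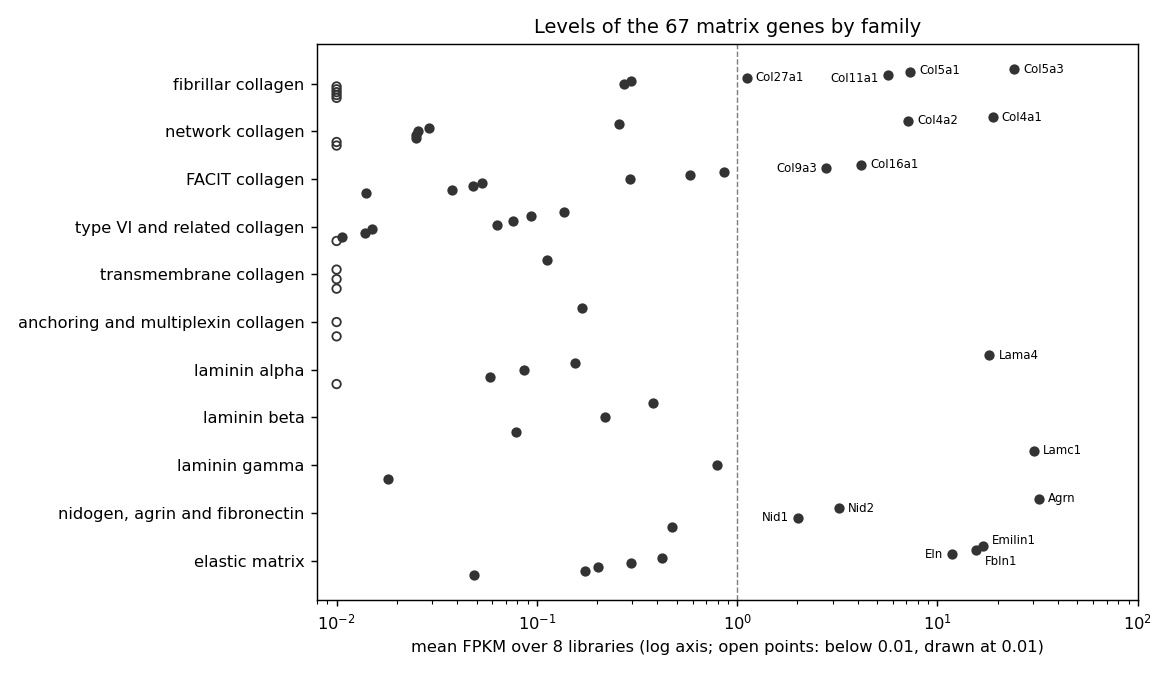
Mean FPKM over the 8 libraries for each of the 67 members, on a log axis, with a row for each family. Points right of the dashed line at 1 FPKM are the 16 tested genes, and open points are members below 0.01 FPKM. Agrn and Lamc1 lie farthest to the right, while the type VI, transmembrane, anchoring and laminin beta families have no member past the line.

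Male and female cultures differed at 2 of the 16 tested members, and both belong to the elastic matrix. Emilin1 and Eln were higher in male cultures, and no member was called higher in female cultures (limma-trend over all 11263 tested genes, Benjamini-Hochberg adjusted p under 0.05). With the same rule 6.04% of all tested genes were called, 3.14% as higher in male and 2.89% as higher in female cultures, against 12.5% of the tested members. At an unadjusted p under 0.05 there were 6 members, Emilin1 and Eln with higher levels in male and Col11a1, Col27a1, Lamc1 and Agrn with lower levels in male cultures. They made up 37.5% of the 16, against 21.2% of all tested genes at that threshold. Col27a1 is among them, and it reached the filter only through its female values, so its test gives no support. The median difference of the 16 members, male minus female, was -0.06 on the log2(FPKM + 1) scale, against -0.0038 over all tested genes. Their median absolute difference was 0.14, against 0.15 over all tested genes. No member differed by 1 or more on this scale. In bulk RNA, fewer cells of a type and less RNA per cell cannot be told apart.

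Emilin1 (ENSRNOG00000008246) encodes a glycoprotein found where elastin meets the microfibrils. Its level was 19.7, 22.5, 21.9 and 19.2 FPKM in male 1 to male 4, against 12.3, 15.7, 13.6 and 10.6 FPKM in female 1 to female 4. Every male library lay above every female one, with a gap between 19.2 FPKM in male 4 and 15.7 FPKM in female 2. The means were 20.8 ± 1.64 FPKM in male and 13.0 ± 2.16 FPKM in female cultures (SD, n = 4 each), a ratio of 1.60. The difference was 0.65 ± 0.12 (SE) on the log2(FPKM + 1) scale, with a 95% interval of 0.38 to 0.91 (limma-trend adjusted p = 0.0111). Among the 11263 tested genes, 554 differed by at least as much. The call held with each library left out in turn (adjusted p = 0.0097 to 0.0436).

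Eln (ENSRNOG00000001469) encodes elastin itself. It stood at 13.5, 14.6, 13.8 and 13.4 FPKM in male 1 to male 4, against 8.16, 10.3, 10.2 and 10.5 FPKM in female 1 to female 4. The male libraries lay close together and all above the female ones, of which female 1 was the lowest. The means were 13.8 ± 0.545 FPKM in male and 9.80 ± 1.10 FPKM in female cultures (SD, n = 4 each), a ratio of 1.41. The difference was 0.46 ± 0.11 on the log2(FPKM + 1) scale, with a 95% interval of 0.23 to 0.70 (limma-trend adjusted p = 0.0284). Leaving out a single library ended this call for male 2 (adjusted p = 0.0921), male 3 (0.0805), male 4 (0.0673), female 1 (0.0584) and female 4 (0.0588), with the difference between 0.38 and 0.50 throughout. Without male 1, female 2 or female 3 it held. The call also ended with relative depth as a covariate (adjusted p = 0.0847) and without male 1 and female 3 together (adjusted p = 0.0527).

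**Figure D2:**
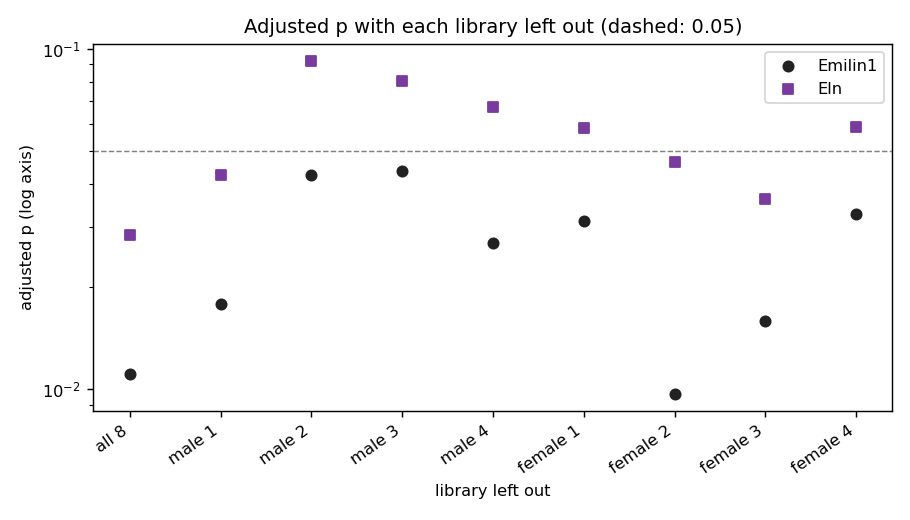
Adjusted p of the difference between male and female cultures for Emilin1 (circles) and Eln (squares), on a log axis, with all 8 libraries and with each library left out in turn. The circles lie below the dashed line at 0.05 in every case, and the squares lie above it when male 2, male 3, male 4, female 1 or female 4 is left out.

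No other elastic matrix gene was called. Fbln1, the gene of a fibulin of basement membranes and elastic fibres, stood at 17.5, 15.5, 15.99 and 11.998 FPKM in male 1 to male 4. Its female values were 15.5, 16.4, 18.7 and 13.4 FPKM, and the sexes overlapped almost wholly. Its difference was -0.07 ± 0.13, with a 95% interval of -0.36 to 0.23. Emilin2, Emilin3, Fbln2, Fbln5 and Fbln7 had means below 1 FPKM and were not tested. Emilin3 had listed values of 0.970, 0.319, 0.459 and 0.951 FPKM in male 1 to male 4, against 0.581, 0, 0.0900 and 0 FPKM in female 1 to female 4. Emilin2 was listed at 0.280 ± 0.122 FPKM in male and 0.306 ± 0.210 FPKM in female cultures. The 8 elastic matrix genes summed to between 46.2 and 53.2 FPKM in male and between 35.5 and 43.3 FPKM in female libraries, most of it from Emilin1, Fbln1 and Eln. This sum holds the called Emilin1 and Eln, so it gives no support beyond their calls. The ratio of Emilin1 to Eln lay between 1.43 and 1.59 in male and between 1.01 and 1.52 in female libraries.

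Genes that neighbour the 2 called members on the chromosome were read from the RefSeq order of assembly GRCr8. This look was chosen after the calls were seen. Emilin1 lies on chromosome 6, and 5 of its 6 nearest neighbours were tested, with none called. Their differences ran from -0.41 to 0.24, with Khk at the low and Ost4 at the high end (limma-trend adjusted p = 0.179 to 0.792). Eln lies on chromosome 12, where 3 of 6 neighbours were tested and none was called. Eif4h (0.10 ± 0.06) and Limk1 (0.08 ± 0.10) had small differences, and that of Mettl27 was -0.80 ± 0.34 (adjusted p = 0.208).

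Type IV collagen, the collagen of basement membranes, was represented by a single chain pair. Col4a1 and Col4a2 encode chains that assemble with each other, and the genes lie head to head. In the RefSeq promoter table (GRCr8), their starts are 77 bases apart on chromosome 16, Col4a1 on the plus and Col4a2 on the minus strand. The window around the Col4a1 start is printed because it holds both starts, at position 251 for Col4a1 and, on the other strand, at position 174 for Col4a2, counted from 1 at its 5′ end. It is chr16:84885347-84885646, plus strand, 250 bases before the Col4a1 start and 50 after it. Capitals mark GGGCGG and CCAAT on either strand (CCGCCC and ATTGG on the reverse).

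Col4a1: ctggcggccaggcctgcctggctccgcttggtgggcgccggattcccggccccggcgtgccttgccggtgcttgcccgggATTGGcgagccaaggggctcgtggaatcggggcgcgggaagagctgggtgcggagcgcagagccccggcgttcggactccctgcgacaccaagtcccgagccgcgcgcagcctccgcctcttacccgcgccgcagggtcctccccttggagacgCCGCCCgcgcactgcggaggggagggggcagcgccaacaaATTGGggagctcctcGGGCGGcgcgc

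Col4a1 stood at 18.5, 17.0, 18.9 and 19.4 FPKM in male 1 to male 4, against 22.0002, 19.5, 16.4 and 19.1 FPKM in female 1 to female 4. Col4a2 stood at 6.52, 7.54, 7.23 and 7.41 FPKM in male 1 to male 4, against 5.96, 7.57, 6.79 and 7.97 FPKM in female 1 to female 4. The sexes overlapped for both genes, and the female libraries spread over a wider range. The differences were -0.05 (95% interval -0.28 to 0.17) for Col4a1 and 0.02 (-0.25 to 0.29) for Col4a2 on the log2(FPKM + 1) scale. Col4a1 was higher than Col4a2 in all 8 libraries, although the pair shares its start region. The ratio of Col4a1 to Col4a2 was 2.84, 2.25, 2.62 and 2.62 in male 1 to male 4, against 3.69, 2.58, 2.41 and 2.39 in female 1 to female 4. Its mean was 2.58 ± 0.245 in male and 2.77 ± 0.622 in female libraries (SD, n = 4 each), and log2 ratios gave p = 0.8 by two-sided exact permutation and 0.8 after adjustment for 2 pairs. Female 1 had the highest ratio. Of the other type IV chains, Col4a4 reached at most 0.604 FPKM, in female 2. The X-linked pair Col4a5 and Col4a6, the only X-linked members, was near 0 in both sexes.

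The promoter table held entries for 51 of the 67 members and for 11 of the 16 tested ones, with none for Emilin1 or Eln. GGGCGG, the letters of the GC box, was found on either strand in 9 of these 11 windows of 300 bases. It was found in 34.9% of all 27457 windows and in 65.5% of the 8294 windows of tested genes. CCAAT was found in 5 of the 11, against 37.7% of all windows and 38.3% of those of tested genes. TATAAA was found in 1 of 11, that of Lama4, against 14.3% of all windows and 5.98% of those of tested genes. TGANTCA, the letters of an AP-1 motif, was found in 0 of the 11 windows, against 7.33% of all windows and 4.15% of those of tested genes. TGANTCA reads the same on both strands, and no motif contains another. The windows of Col4a1 and Col4a2 share 176 bases, and GGGCGG and CCAAT sites in that stretch count for both genes. The median GC content was 69.0% over the 11 windows and 61.7% over those of tested genes.

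Fibrillar collagens were led by type V. Col5a3, which encodes the less widespread alpha 3 chain of type V collagen, stood at 24.1, 24.7, 22.8 and 21.7 FPKM in male 1 to male 4. Its female values were 26.4, 25.5, 24.5 and 23.2 FPKM, and the sexes overlapped (difference -0.09, 95% interval -0.27 to 0.09). Col5a1 stood at 7.05, 6.99, 8.97 and 7.79 FPKM in male 1 to male 4, against 9.20, 6.64, 5.44 and 6.43 FPKM in female 1 to female 4 (difference 0.15, 95% interval -0.19 to 0.49). Col5a2, whose chain joins that of Col5a1 in the common form of type V collagen, was listed at 0.361 ± 0.136 FPKM in male and 0.226 ± 0.157 FPKM in female cultures. Col5a3 was 2.55 to 4.51 times as high as Col5a1 in every library. Type I and type III collagen, which fibroblasts make in quantity, were at or near 0. Col1a2 and Col3a1 were listed at 0 in all libraries, and Col1a1 was above 0 in male 1 alone.

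Col11a1 and Col27a1 were lower in every male library than in any female one, without passing the test. Col11a1 encodes a chain of the thin collagen fibrils known best from cartilage. It stood at 3.97, 5.00, 4.68 and 5.21 FPKM in male 1 to male 4, against 7.59, 6.36, 5.40 and 7.15 FPKM in female 1 to female 4. The sexes came closest at male 4 and female 3. The mean was 4.71 ± 0.541 FPKM in male and 6.62 ± 0.963 FPKM in female cultures (SD, n = 4 each), and the difference was -0.41 ± 0.14 (95% interval -0.72 to -0.10, limma-trend adjusted p = 0.115). Col27a1, another fibrillar chain of cartilage, stood at 0.894, 0.809, 0.485 and 0.469 FPKM in male 1 to male 4, against 1.84, 1.73, 1.03 and 1.68 FPKM in female 1 to female 4. Its mean was 0.664 ± 0.219 FPKM in male and 1.57 ± 0.367 FPKM in female cultures, and the difference was -0.62 ± 0.21 (95% interval -1.09 to -0.16, adjusted p = 0.115). Col27a1 reached the filter only through its female values, the group in which it was higher, so its test gives no support. At such levels a library holds few fragments, and the log2(FPKM + 1) scale understates the change. In all, the sexes were separated without overlap at 4 of the 16 tested members (25.0%), against 14.0% of all tested genes. Among the 15 members with a mean of at least 1 FPKM in each sex there were 3. The promoter windows of Col11a1 and Col27a1 are shown because both genes lay the same way without overlap, a choice made after their values were seen. They are chr2:204508886-204509185 and chr5:81662658-81662957 (GRCr8, RefSeq, plus strand), with GGGCGG and CCAAT on either strand in capitals.

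Col11a1: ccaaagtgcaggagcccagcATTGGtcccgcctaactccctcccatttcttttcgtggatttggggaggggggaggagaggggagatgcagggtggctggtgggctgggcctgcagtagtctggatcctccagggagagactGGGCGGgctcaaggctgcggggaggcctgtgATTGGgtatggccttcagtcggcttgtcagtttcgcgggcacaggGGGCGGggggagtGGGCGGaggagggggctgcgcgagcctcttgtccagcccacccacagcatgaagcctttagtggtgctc
Col27a1: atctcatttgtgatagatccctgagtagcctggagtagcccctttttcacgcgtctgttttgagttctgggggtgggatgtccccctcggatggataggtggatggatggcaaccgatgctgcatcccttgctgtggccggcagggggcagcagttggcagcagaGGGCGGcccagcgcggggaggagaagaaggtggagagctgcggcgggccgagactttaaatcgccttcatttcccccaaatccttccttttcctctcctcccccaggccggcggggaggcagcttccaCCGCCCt

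GGGCGG occurs 3 times in the Col11a1 window and 2 times in that of Col27a1. CCAAT occurs 2 times in the Col11a1 window and 0 times in that of Col27a1.

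**Figure D3:**
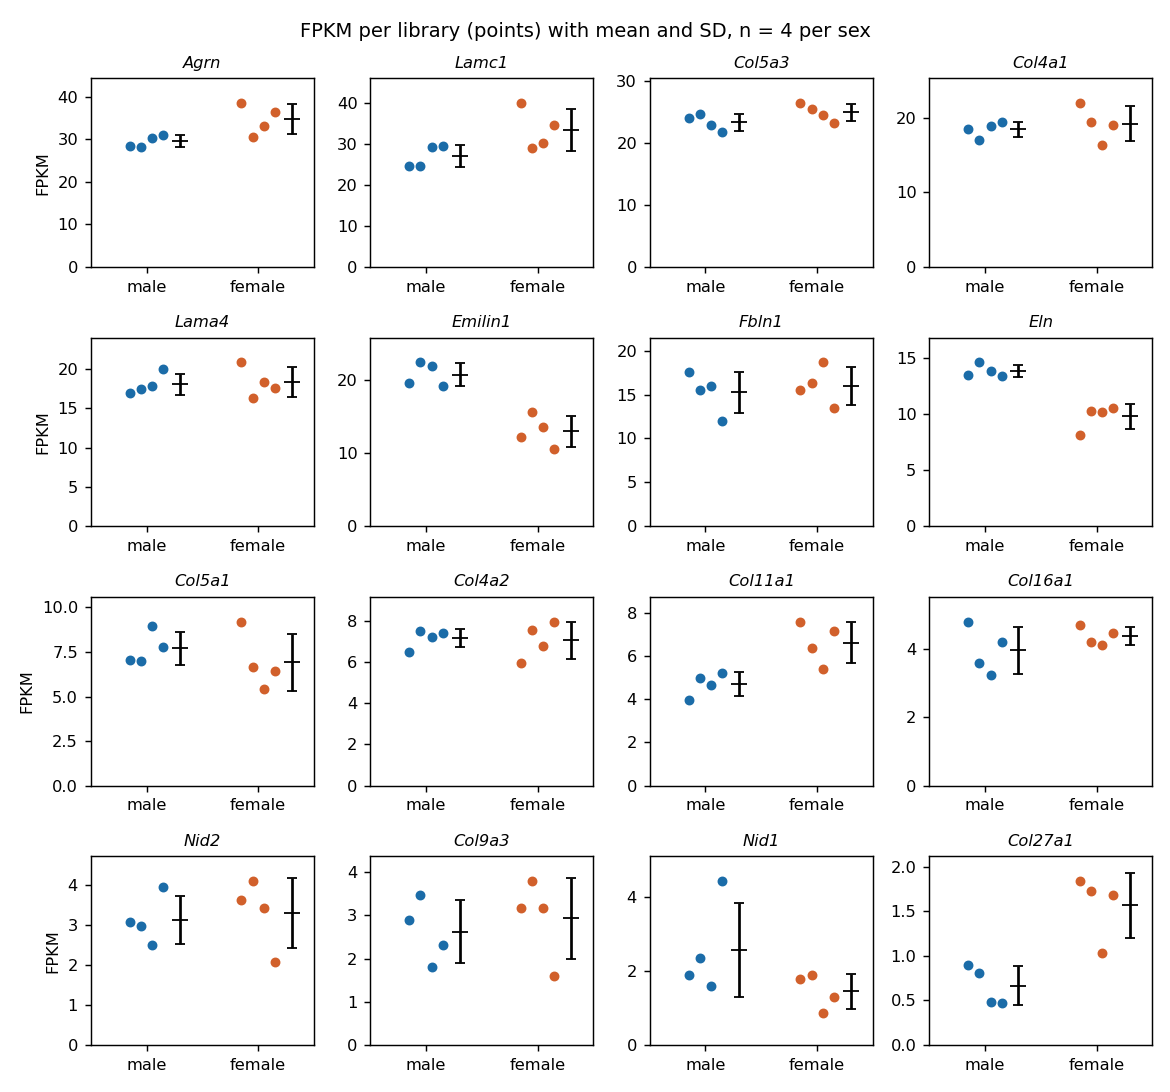
FPKM of the 16 tested members in each library, male left of female in each panel, with points for the 4 libraries of a sex in order of their number and a bar for the mean and SD. Emilin1 and Eln lie wholly higher in male libraries, Col11a1 and Col27a1 wholly lower, and the other 12 overlap.

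The collagens that sit on fibril surfaces (FACIT collagens) were low. Col16a1 stood at 4.80, 3.59, 3.25 and 4.20 FPKM in male 1 to male 4, against 4.70, 4.22, 4.13 and 4.46 FPKM in female 1 to female 4 (difference -0.13, 95% interval -0.44 to 0.19). Col9a3 stood at 2.89, 3.48, 1.81 and 2.31 FPKM in male 1 to male 4, against 3.17, 3.79, 3.16 and 1.60 FPKM in female 1 to female 4 (difference -0.11, 95% interval -0.60 to 0.39). Neither gene separated the sexes. The partner chains of type IX collagen were lower than Col9a3 and were not tested. Col9a2 was listed at 0.359 ± 0.201 FPKM in male and 0.799 ± 0.204 FPKM in female cultures.

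Below the filter, the sexes were also separated at 2 members, Col9a1 and Col20a1, both named after their values were seen. They were 2 of 41 members below the filter and above 0 in at least 1 library (4.88%), against 3.57% of 4675 such genes. Col9a1 had listed values of 0.718, 0.0999, 0.575 and 0.695 FPKM in male 1 to male 4, against 1.46, 0.904, 0.846 and 1.55 FPKM in female 1 to female 4. Col20a1, a FACIT collagen, had listed values of 0.0965, 0.0873, 0 and 0.260 FPKM in male 1 to male 4, against 0.477, 0.395, 0.394 and 0.634 FPKM in female 1 to female 4. Few fragments stand behind these values. After scaling by relative depth, the Col20a1 values were within 0.06 of 2, 1, 0 and 3 steps in male 1 to male 4 and of 3, 3, 8 and 7 steps in female 1 to female 4, taking its lowest value as 1 step. The Col9a1 values were within 0.1 of 13, 1, 8 and 7 steps in male 1 to male 4 and of 8, 6, 15 and 15 steps in female 1 to female 4. A step may be 1 fragment, which was not checked. With no filter on low values, limma-trend called 2 of 57 members, Emilin1 and Eln, against 3.36% of all 15938 genes in that fit. The member share was thus near that of all genes, unlike in the filtered fit. Col20a1 (difference -0.41 ± 0.11, adjusted p = 0.0796) and Col9a1 (-0.53 ± 0.20, adjusted p = 0.199) were not called.

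Laminins assemble from an alpha, a beta and a gamma chain, and the chains were measured at very different levels. Lamc1, the widespread gamma 1 chain, stood at 24.7, 24.7, 29.3 and 29.5 FPKM in male 1 to male 4, against 40.1, 29.0, 30.3 and 34.6 FPKM in female 1 to female 4. Lama4, an alpha chain known from vessels and peripheral nerve, stood at 16.9, 17.5, 17.8 and 20.0 FPKM in male 1 to male 4, against 20.9, 16.3, 18.4 and 17.6 FPKM in female 1 to female 4. Lamc1 leaned towards female cultures, while Lama4 showed no lean. The difference of Lamc1 was -0.29 ± 0.11 (95% interval -0.54 to -0.04, limma-trend adjusted p = 0.168) and that of Lama4 was -0.02 ± 0.10 (95% interval -0.23 to 0.20, adjusted p = 0.953). The ratio of Lamc1 to Lama4, computed after both genes were seen, lay between 1.41 and 1.643 in male and between 1.644 and 1.96 in female libraries. No beta chain reached 1 FPKM. Lamb1, Lamb2 and Lamb3 had a highest value of 0.623 FPKM, that of Lamb2 in male 3, and their sum lay between 0.732 and 1.11 FPKM in male and 0.343 to 0.639 FPKM in female libraries. Lama2, whose chain is the laminin best known for its role in myelination, was listed at 0.0394 to 0.142 FPKM in male and 0.0447 to 0.164 FPKM in female libraries.

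The proteins that bind laminin sheets included the most abundant member. Agrn encodes agrin, a heparan sulfate proteoglycan known for gathering acetylcholine receptors at the nerve-muscle synapse. It stood at 28.4, 28.2, 30.3 and 31.1 FPKM in male 1 to male 4, against 38.5, 30.6, 33.1 and 36.4 FPKM in female 1 to female 4. Its sexes met at male 4 and female 2, and the difference was -0.22 ± 0.09 (95% interval -0.42 to -0.03, limma-trend adjusted p = 0.178). Nid2, a nidogen that links laminin to type IV collagen, stood at 3.06, 2.98, 2.50 and 3.95 FPKM in male 1 to male 4, against 3.62, 4.09, 3.41 and 2.07 FPKM in female 1 to female 4, and the sexes overlapped. Its relative Nid1 stood at 1.89, 2.37, 1.61 and 4.44 FPKM in male 1 to male 4, against 1.80, 1.88, 0.854 and 1.30 FPKM in female 1 to female 4. Male 4 was the highest and male 2 lay above all female libraries, as did male 1 by a small margin, while male 3 fell within the female range. The difference of Nid1 was 0.50 ± 0.25 (95% interval -0.06 to 1.06, adjusted p = 0.289), and it fell to 0.28 without male 4. The ratio of Nid1 to Nid2 was 0.617, 0.795, 0.644 and 1.12 in male 1 to male 4, against 0.496, 0.460, 0.251 and 0.627 in female 1 to female 4. Its mean was 0.795 ± 0.233 in male and 0.458 ± 0.156 in female libraries (SD, n = 4 each), with p = 0.0857 by two-sided exact permutation and 0.171 after adjustment for 2 pairs, where 0.0286 is the smallest p possible. Fn1, the gene of fibronectin, was listed at 0.272 to 0.898 FPKM in male and 0.332 to 0.648 FPKM in female libraries.

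The order of the levels was Agrn, Lamc1, Col5a3, Col4a1, Lama4, Emilin1, Fbln1 and Eln, and these 8 held 80.6% of the summed FPKM. Agrn was higher than Lamc1 in 7 of 8 libraries, Lamc1 than Col5a3 in 7 and Col5a3 than Col4a1 in 8. Col4a1 and Lama4 could not be ranked, since Col4a1 was the higher in 5 of 8 libraries. Emilin1 held a different place in the sexes, being higher than Fbln1 in 4 of 4 male and 0 of 4 female libraries. Spread within a sex was modest, with a median coefficient of variation of 10.8% in male and 14.1% in female libraries over the 16 members. Nid1 had the widest spread in male libraries, 49.8%.

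**Figure D4:**
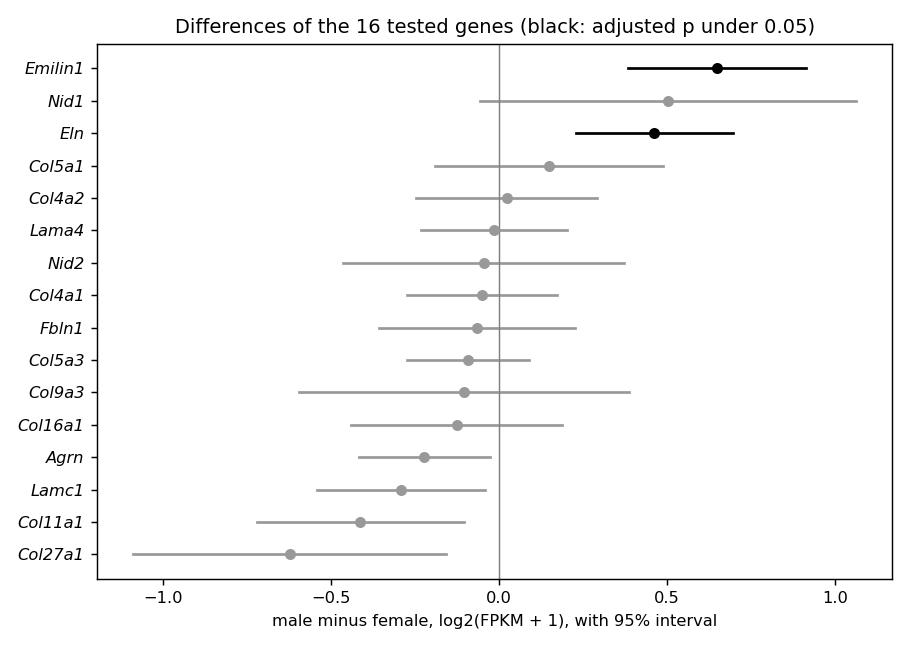
Male minus female difference of each of the 16 tested members, in units of log2(FPKM + 1), with bars for the 95% interval. The intervals of Emilin1 and Eln (black, adjusted p under 0.05) lie above 0, those of Col27a1, Col11a1, Lamc1 and Agrn lie below 0 without passing the adjusted threshold, and the other 10 include 0.

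Lists of related genes were read from the same fit. That fit called 3.14% of all tested genes as higher in male and 2.89% as higher in female cultures, the shares to read beside each list. Among enzymes and chaperones of collagen folding, modification and cross-linking, 0 of 18 tested genes were called higher in male and 1 in female cultures, with a median difference of 0.02. The called gene was Colgalt2, which encodes an enzyme that adds galactose to collagen. It stood at 16.9, 15.5, 15.8 and 16.4 FPKM in male 1 to male 4, against 32.4, 21.7, 23.4 and 28.7 FPKM in female 1 to female 4 (difference -0.67 ± 0.12, limma-trend adjusted p = 0.0102). All its male values lay below the female ones, and the call held with each library left out. Serpinh1, the gene of the collagen chaperone HSP47, was named after its values were seen. It stood at 4.36, 4.62, 2.49 and 6.02 FPKM in male 1 to male 4, against 1.08, 2.03, 1.19 and 3.28 FPKM in female 1 to female 4 (difference 0.91 ± 0.27, adjusted p = 0.076). It passed the threshold in 1 of 8 fits with a library left out, that without female 4 (difference 1.12, adjusted p = 0.0477). In the others the adjusted p was up to 0.190. Of 8 other settings it passed in 1, with the replicate number as a block (adjusted p = 0.0434).

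Among other proteins of microfibrils and elastic fibres, 0 of 6 tested genes were called higher in male and 1 in female cultures, with a median difference of 0.0024. This was Ltbp3, a gene of the latent TGF-beta binding proteins, at 14.7, 14.2, 13.7 and 14.4 FPKM in male 1 to male 4, against 19.8, 18.3, 16.1 and 21.0 FPKM in female 1 to female 4. Its difference was -0.37 ± 0.10 (limma-trend adjusted p = 0.0493), opposite in sign to those of Emilin1 and Eln. The call was lost with any single library left out except female 3 (adjusted p up to 0.146). It also ended with no filter (0.0679), quantile normalization (0.0507), relative depth as a covariate (0.139), the replicate number as a block (0.103) and the test against a 1.5-fold change. Of the fibrillin genes, named after their values were seen, Fbn2 stood at 8.86 ± 2.96 FPKM in male and 7.15 ± 1.22 FPKM in female cultures and was not called (difference 0.23 ± 0.22, limma-trend adjusted p = 0.615). Fbn1 stood at 0.218 FPKM in male and 0.188 FPKM in female cultures and was not tested.

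Among receptors and linkers of the matrix, 0 of 10 tested genes were called higher in male and 1 in female cultures, with a median difference of -0.15. Smoc1, which encodes a secreted calcium-binding protein of basement membranes, stood at 172, 174, 169 and 173 FPKM in male 1 to male 4, against 281, 253, 239 and 254 FPKM in female 1 to female 4. The male values lay close together, below all female ones. The difference was -0.57 ± 0.06 (limma-trend adjusted p = 0.00067), and the call held with each library left out. Most integrin genes of the list were low, and 9 of 11 did not reach the filter, among them Itga1, Itga2, Itga3, Itga6 and Itga7. Itga6 lay near the filter, at 0.841 ± 0.209 FPKM in male and 1.11 ± 0.138 FPKM in female cultures. The genes named next were chosen after their values were seen. Itgav stood at 91.6 ± 19.3 FPKM in male and 122 ± 14.6 FPKM in female cultures. It was not called (difference -0.43 ± 0.16, limma-trend adjusted p = 0.147). Itgb1, the shared beta chain of many matrix integrins, stood at 146 ± 3.39 FPKM in male and 139 ± 5.43 FPKM in female cultures. Dag1, the gene of dystroglycan, stood at 123 ± 9.95 FPKM in male and 125 ± 3.26 FPKM in female cultures, and neither was called.

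Markers of other cell types were read beside these results. Endothelial markers were near 0, with a summed FPKM of 0.548 to 1.12 in male and 0.316 to 1.54 in female libraries, and 0 of 14 reached the filter. Of 23 markers of pericytes, fibroblasts and meninges, 6 were listed at 0 in all libraries, among them Dcn, Ogn and Tbx18, and Pdgfrb was above 0 in female 1 alone. Their sum was 14.2 to 19.2 FPKM in male and 10.6 to 18.7 FPKM in female libraries. Its largest part was Prrx1, at 8.03 ± 1.54 FPKM in male and 8.65 ± 3.10 FPKM in female cultures. In all, 3 of the markers were tested. Of these Tagln, a gene of smooth muscle and other contractile cells, was called higher in male cultures, with 2.25, 3.66, 2.05 and 2.42 FPKM in male 1 to male 4, against 0, 0.699, 0.686 and 0.895 FPKM in female 1 to female 4 (difference 1.22 ± 0.25, limma-trend adjusted p = 0.0182). Tagln reached the filter only through its male values, since its female mean was 0.570 FPKM. It was not called without male 2 (adjusted p = 0.0686), with relative depth as a covariate (0.0643) or with a pseudocount of 0.1 (0.0669). Other markers of this list were named after their values were seen. Myl9 stood at 3.58 ± 0.872 FPKM in male and 2.02 ± 1.31 FPKM in female cultures and was not called (limma-trend adjusted p = 0.211). Acta2 was not tested, at 1.46 ± 0.788 FPKM in male and 0.252 ± 0.227 FPKM in female cultures. Thbs2 and Abcc9 were not tested and lay wholly higher in female libraries (means 0.670 and 0.144 FPKM, against 0.213 and 0.0479 FPKM). The part that Tagln-expressing cells have in the Emilin1 and Eln differences was not tested.

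The counts of called markers below stand beside 6.04% called over all tested genes. Microglia and macrophage markers moved with sex in the direction opposite to Emilin1 and Eln. Of 14 tested markers 11 were called, all higher in female cultures, and the sum over 16 markers was 47.2 to 65.2 FPKM in male and 180.0 to 226 FPKM in female libraries. Cx3cr1, Trem2 and P2ry12 reached the filter only through their female values (male means 0.475, 0.871 and 0.918 FPKM), so their tests give no support. Of these only Cx3cr1 is among the called markers. Of 12 tested OPC markers 6 were called higher in female cultures, with sums of 2294 to 2416 FPKM in male and 2764 to 3084 FPKM in female libraries. Of 14 tested neuron markers 5 were called higher in male cultures, with sums of 380.1 to 416 FPKM in male and 343 to 467 FPKM in female libraries. The largest part of these sums was Map2, which was not called (150 ± 21.6 FPKM in male and 169 ± 50.9 FPKM in female cultures). Those called were Gad1 (19.2 FPKM in male and 3.93 FPKM in female cultures), Gad2 (8.94 and 3.02), Dlx1 (4.53 and 1.10), Syt1 (21.0 and 11.7) and Stmn2 (9.33 and 5.76). None of 9 tested astrocyte markers was called, with sums of 227 to 249 FPKM in male and 226 to 257 FPKM in female libraries. The largest parts of these sums were Aldoc (88.7 FPKM in male and 102 FPKM in female cultures) and Slc1a3 (86.8 and 74.0). Gfap was low (2.39 and 1.96), and Aqp4, Aldh1l1 and Gjb6 did not reach the filter. Without being called, Slc1a3 lay wholly higher in male and Sox9 wholly higher in female libraries. The part of these cell types in the differences of the matrix genes was not tested.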

How the data were processed

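RNA of 8 libraries, 4 male and 4 female, was grouped by the sample titles. Per the labels' protocols, libraries were made with a strand-specific Agilent SureSelect kit from total RNA. The authors deposited FPKM per gene and library, per the file headers. The submitters' processing notes name Trimmomatic and FastQC. For the aligner, counting program, genome build and use of strand, the entry is "not given in the sources used here", so reads of overlapping genes on opposite strands may not be separated. FPKM is relative to the total of a library and holds no counts, so no interval from counts could be given. Its precision is lower in shallower libraries.

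Of 32883 genes, 11263 reached a mean of 1 FPKM. Their log2(FPKM + 1) values were tested with limma-trend (limma 3.58.1, R 4.3.3, robust), with Benjamini-Hochberg adjustment over all of them. Differences are male minus female. The test was tested on simulated data with known changes. Relative depth was the inverse of the most frequent ratio of low values (below 1 FPKM) to male 1, from 3430 genes. Ratios of chain pairs were compared by exact two-sided permutation over 70 assignments. Of 13 listed pairs, 2 had both genes above the filter.

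Per-library values are given for called members, tested members without overlap, the 10 most abundant and the chain pairs. Called genes of related lists are named as well, and other genes that are named were chosen after their values were seen. The members and lists were chosen with earlier results of these data known. Alternatives were other pseudocounts (0.1 and 5), no filter, a filter at a mean of 5 FPKM, quantile normalization, a replicate block, depth as a covariate, a test against a 1.5-fold change, and libraries left out singly or as a pair. Symbols of all 67 members matched RefSeq assembly GRCr8. Python 3.11.15 and scipy 1.17.1 were used.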

Additional observations from a re-analysis of the deposited data

Results flagged for a closer look

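The Eln value of female 1 (8.16 FPKM) stood apart from the other female libraries, at 10.2 to 10.5 FPKM. Its gap to the nearest of them was 0.870 of the range of the 4 libraries, above Dixon's 95% critical value for 4 samples. Of the 32 groups of 4 libraries examined, 1 stood out, and chance flags about 1 in 20. Female 1 was also the shallowest library, at 0.304 times the depth of male 1. Without it the Eln difference was 0.38 and not called (limma-trend adjusted p = 0.0584).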

How the results depend on the processing

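Emilin1 kept its call in 16 of 17 alternatives and lost it only in the test against a 1.5-fold change. The members called higher in male cultures, 2 in the reported fit, numbered 1 with relative depth as a covariate, 1 without male 1 and female 3 together, 0 in the test against a 1.5-fold change, and 1 to 2 with a library left out. All genes called, 680 in the reported fit, numbered 366 with relative depth as a covariate, 18 against a 1.5-fold change and 298 to 803 with a library left out. With the replicate number as a block, 1 member (Emilin1) and 397 genes were called, and Eln missed the threshold (adjusted p = 0.0758). Libraries of the same number did not deviate together (r from -0.09 to 0.08 over 11263 genes, which are not independent replicates). The largest r, 0.24, was that of male 1 and female 3, the deepest libraries. The labels do not say whether libraries of the same number share a litter, day or batch. With 4 libraries of each sex, these values cannot tell. No alternative called a member higher in female cultures. Signs changed only for members near 0. With depth as a covariate Col4a1 was at 0.026, Lama4 at 0.016 and Nid2 at 0.026. Lama4 was at 2.57e-05 under quantile normalization and at 0.018 without male 1 and female 3 together. With a library left out, Lama4 ran from -0.065 to 0.046, Nid2 from -0.20 to 0.044, Col9a3 from -0.29 to 0.0093, Fbln1 from -0.14 to 0.038, Col4a1 from -0.12 to 0.012, Col4a2 from -0.046 to 0.076 and the log2 ratio of Col4a1 to Col4a2 (difference between the sexes) from -0.13 to 0.059. The cause of these shifts was not tested. Depth limits the members below 1 FPKM.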
